A study of Homo sapiens with 6 samples.

Results

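The cadherins, protocadherins and desmosomal cadherins of MDA-MB-231 cells with and without TIP-1 silencing were read from the array's probe table by gene symbol: CDH followed by digits, any symbol that starts with PCDH, and DSG or DSC followed by 1 digit. The family held 71 rows with 1 symbol, which cover 70 genes, of 21214 rows tested (PCDHA2 has 2 rows). They were 4 type I classical cadherins, 13 type II cadherins, 4 other CDH genes, 4 desmogleins, 3 desmocollins, 11 protocadherins outside the clusters, 13 PCDHA rows, 18 PCDHB rows (with the pseudogenes PCDHB17P and PCDHB18P) and 1 PCDHG row. A further 3 rows with several symbols were kept apart, and none of them passed in any comparison. CDH4, CDH13, PCDHA9 and most PCDHG genes, 28 genes in all, had no row of their own and were not analysed here.

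Cadherins are membrane proteins whose extracellular repeats bind calcium and hold neighbouring cells together. Classical cadherins link through catenins to actin, and the desmosomal cadherins (desmogleins and desmocollins) link through plakoglobin and desmoplakin to keratin filaments. Protocadherins share the repeats but not the catenin-binding tail. Most of them are coded in the PCDHA, PCDHB and PCDHG clusters, which lie side by side on chromosome 5, and neurons switch on a few genes of each cluster by choosing among their separate promoters. Breast carcinoma cells that lose the epithelial cadherin CDH1 often carry the mesenchymal cadherins CDH2 or CDH11 instead.

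All 6 cultures were MDA-MB-231, an established human triple-negative breast cancer line, grown with fetal bovine serum in RPMI medium and reseeded the day before RNA extraction. They were 2 clones with TIP-1 shRNA 159 (named A1 and A4 in the labels, here clones 1 and 2), 2 clones with TIP-1 shRNA 162 (B1 and B4) and 2 clones with a control shRNA, each measured once on an Affymetrix Human Gene 1.0 ST array. TIP-1, encoded by TAX1BP3, is a small PDZ-domain protein that binds beta-catenin, the partner of classical cadherins. Clones of 1 line are the replicates (n = 2 per group), so p-values measure the spread between clones. The question was which genes differ when TIP-1 is silenced.

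All values are log2 signals as deposited by the authors, and a difference of 1 is a 2-fold difference. A row is said to pass when its p from 1 limma model with 3 groups, adjusted over all 21214 rows after Benjamini and Hochberg, was under 0.05. The TAX1BP3 row, also annotated to the readthrough P2RX5-TAX1BP3, had 43.4% of the control signal with shRNA 159 and 31.3% with shRNA 162 (exact two-sided permutation p = 0.0667 for the 4 silenced clones against control, the smallest that 15 splits allow). Median signals of the 6 arrays lay between 7.86 and 7.91, and lower quartiles between 6.68 and 6.81. The line's mesenchymal markers VIM, CD44, AXL, MSN, CAV1 and ZEB1 lay between 9.89 and 13.41 on every array, and none of the 6 passed. Among markers of other cells, 4 of 6 endothelial, 3 of 4 leukocyte, 3 of 4 melanocyte and 1 of 3 neural genes lay below the lower quartile on all arrays, and none of these lists held a gene that passed. The 6 arrays were not alike for the family. The first shRNA 159 clone had the lowest signal of the 6 arrays for 34 of the 71 rows, 47.9%, against 25.2% of all rows, and the part of this in the results was not tested.

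Of the 71 rows, 13 passed in at least 1 comparison and 58 in none. In bulk RNA, fewer cells with a transcript and less of it per cell cannot be told apart. Against control, 3 rows passed with shRNA 159, all lower, where 2.53% of all rows passed, 1.69% higher and 0.839% lower (4.23% of the family). With shRNA 162, 5 were higher and 3 lower (11.3%), where 9.52% of all rows passed, 5.88% higher and 3.64% lower. For the mean of both hairpins minus control, 2 were higher and 3 lower (7.04%), where 4.62% of all rows passed, 3.01% higher and 1.61% lower. Between the hairpins, shRNA 159 minus shRNA 162, 9 rows passed and all 9 were lower with shRNA 159 (12.7%), where 8.65% of all rows passed, 4.02% higher and 4.64% lower. Median changes of the family were -0.10, -0.01, -0.06 and -0.08 in that order of comparisons, beside -0.01, 0.02, 0.00 and -0.04 over all rows.

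Whether clones overlapped was counted too. Both shRNA 159 clones lay above both control clones in 2 family rows and below them in 28, beside 20.7% and 21.7% of all rows. Both shRNA 162 clones lay above both control clones in 15 family rows and below in 11, beside 33.3% and 23.3% of all rows. All 4 silenced clones lay above both control clones in 1 family row and below in 8, beside 13% and 8.9% of all rows. The shRNA 159 clones lay above both shRNA 162 clones in 3 family rows and below in 31, beside 19.3% and 32.6% of all rows. The comparisons with control share the same 2 control clones.

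**Figure D1:**
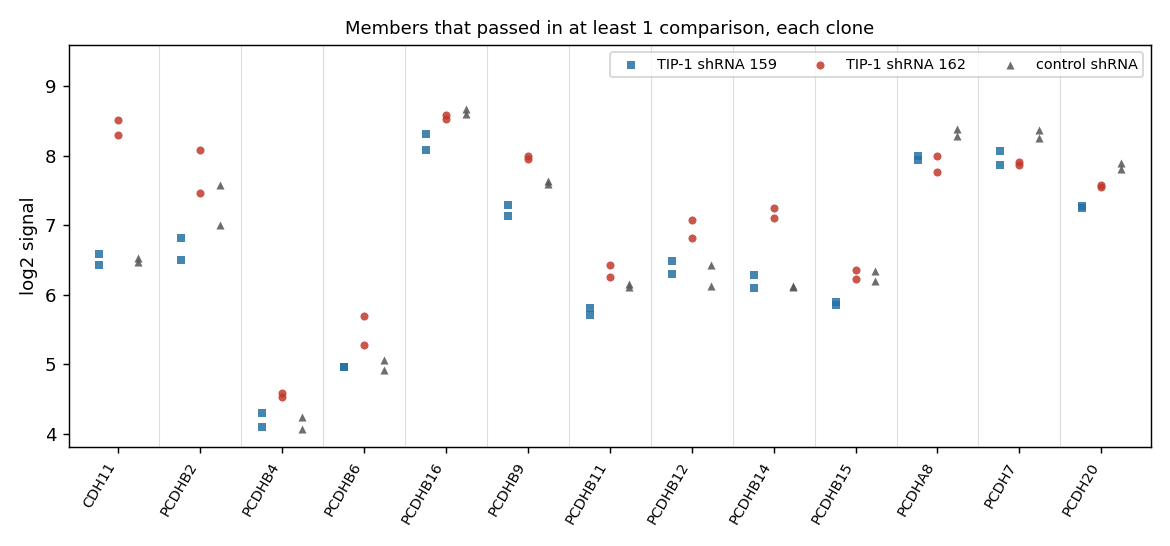
Log2 signal (vertical axis) of each clone for the 13 family members that passed in at least 1 comparison (horizontal axis), with squares for TIP-1 shRNA 159, circles for TIP-1 shRNA 162 and triangles for control shRNA. CDH11 and PCDHB14 stand high in the shRNA 162 clones alone, and PCDH20 is highest in the control clones.

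These counts depended on single arrays. Without either control clone, 1 or 0 rows passed with shRNA 159 (control clone 1 or 2 left out, with 10 rows at an unadjusted p under 0.05 by limma where none passed), 2 or 3 with shRNA 162 and 1 for both hairpins. The counts over all rows fell too: without control clone 1 or 2, 182 or 142 of the 21214 rows passed with shRNA 159 (537 with every array), 526 or 636 with shRNA 162 (2019 with every array) and 187 or 197 for both hairpins (980 with every array). Without the first or the second shRNA 162 clone, the shRNA 162 count was 5 or 2 (697 or 570 over all rows). The count between hairpins was 4 without the first shRNA 162 clone, and the count for both hairpins was 3 without the second. The shRNA 159 count was 1 without either shRNA 162 clone, which enter that comparison through the pooled spread alone. With the 4 silenced clones as 1 group or with the hairpin as a random block, the spread between hairpins entered the error beside that between clones. No row of the family then passed for both hairpins by limma, against 5 in the 3-group model. Over all rows, 71 and 27 passed, against 980. At an unadjusted p under 0.05, 5 and 3 of the 71 family rows passed (7.04% and 4.23%), beside 10.5% and 7.41% of all rows. Fitting every row of the value table adds rows with no symbol to the fit as well as to the adjustment. That left the calls of CDH11, the calls of PCDHB14 with shRNA 162 and between hairpins, and those of PCDHB9 and PCDHB11 between hairpins.

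The PCDHB genes made up most of the rows that passed. Each is a short gene with its own promoter, and a conserved element with a CGCT core has been described in promoters of clustered protocadherins. RefSeq promoters (GRCh38.p14, 250 bases before to 50 after each start) were at hand for 51 of the 70 genes, 14 of them PCDHB. The 8-base word GTGGCGCT, searched on both strands, occurred in 13 of the 14 PCDHB promoters and not in that of PCDHB1. It occurred in none of 10 PCDHA promoters, none of 2 PCDHGB4 promoters, none of 38 promoters of the other members and 1.15% of all 35116 promoters. The word was picked because these PCDHB promoters share it, so its share among them is a description. Its first base lay 1 to 83 bases before the start. The windows below, 56 bases each on the plus strand, show the word in capitals for 7 genes that passed in at least 1 comparison and for PCDHB13, which passed in none.
PCDHB2 (chr5:141094532-141094587): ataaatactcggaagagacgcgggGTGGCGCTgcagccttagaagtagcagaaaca
PCDHB4 (chr5:141121711-141121766): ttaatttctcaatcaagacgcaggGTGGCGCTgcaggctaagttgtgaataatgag
PCDHB16 (chr5:141182298-141182353): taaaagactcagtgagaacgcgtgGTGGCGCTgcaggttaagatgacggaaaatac
PCDHB9 (chr5:141187062-141187117): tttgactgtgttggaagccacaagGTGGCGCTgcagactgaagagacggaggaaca
PCDHB12 (chr5:141208631-141208686): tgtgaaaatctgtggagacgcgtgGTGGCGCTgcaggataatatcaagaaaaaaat
PCDHB13 (chr5:141213853-141213908): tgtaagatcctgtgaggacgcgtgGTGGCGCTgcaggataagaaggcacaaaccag
PCDHB14 (chr5:141223251-141223306): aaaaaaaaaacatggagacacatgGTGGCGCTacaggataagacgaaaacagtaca
PCDHB15 (chr5:141245302-141245357): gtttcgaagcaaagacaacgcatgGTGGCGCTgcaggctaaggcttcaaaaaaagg

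The longer word GTGGCGCTG occurred in 12 of the 14, not in PCDHB1 and PCDHB14, and in 0.572% of all promoters. Outside the word the windows differ. Over all 56 positions, the word included, the others share 50 to 64.3% with PCDHB14, without gaps. PCDHB8 and PCDHB13 differ at 1 of 56 positions. Genes of this cluster are close copies, and signal from one copy on another's probes cannot be told apart in these values.

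Of the 18 PCDHB rows, 7 (38.9%) were lower with shRNA 159 than with shRNA 162, where 4.64% of all rows were, and none was higher. The median change was -0.40, beside -0.04 for all rows. Of the 18 changes 16 were below 0, as were 12710 of the 21214 rows tested. In 14 of the 18 both shRNA 159 clones lay below both shRNA 162 clones, as in 32.6% of all rows. Without the first shRNA 162 clone the 7 became 3, all among the 7, and without the second 5 passed, 4 lower and 1, PCDHB8, higher.

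Against control, the counts were smaller. With shRNA 162, 4 PCDHB rows were higher and none lower (22.2%, where 5.88% of all rows were higher), with a median change of 0.12. With shRNA 159, 2 were lower and none higher (11.1%, where 0.839% of all rows were lower), with a median change of -0.20. Of the 18 rows, 13 lay below the lower quartile on all 6 arrays.

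**Figure D2:**
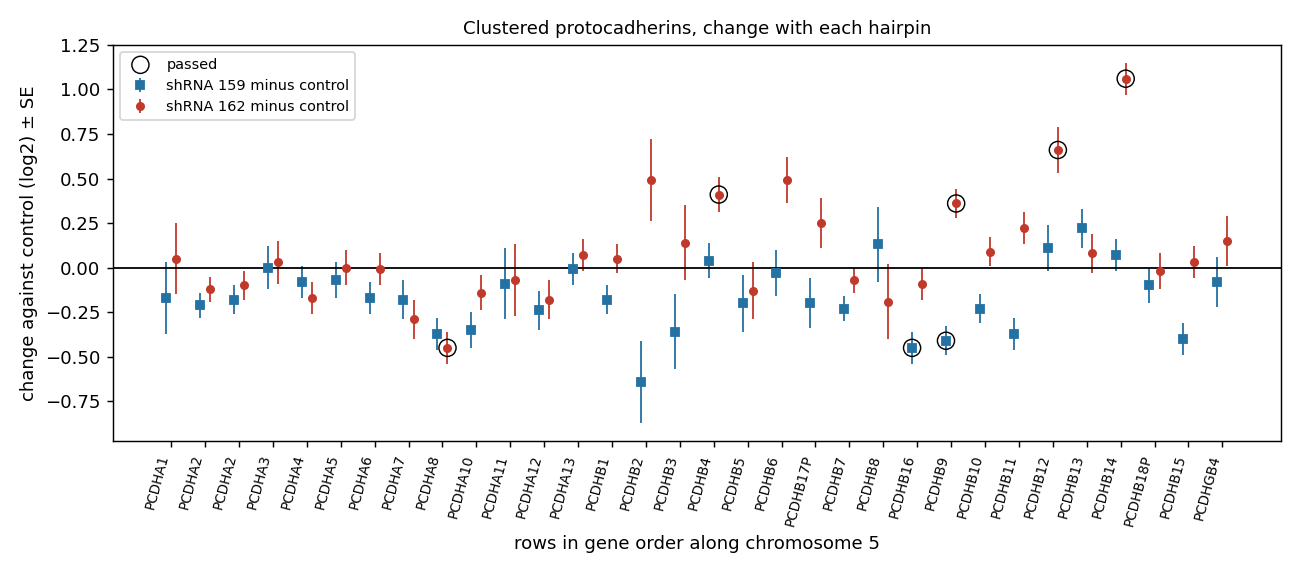
Change against control on the log2 scale (vertical axis, points with SE) for each clustered protocadherin row in gene order along chromosome 5 (horizontal axis), with squares for shRNA 159 and circles for shRNA 162. Open rings mark changes that passed: PCDHA8, PCDHB4, PCDHB9, PCDHB12 and PCDHB14 with shRNA 162, and PCDHB16 and PCDHB9 with shRNA 159, where PCDHB9 is the one row ringed on both sides of 0.

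PCDHB14 moved most against control within the cluster. Its signal was 6.10 and 6.28 in the shRNA 159 clones, 7.25 and 7.10 in the shRNA 162 clones and 6.11 and 6.12 in the control clones. Both shRNA 162 clones stood above all other clones, which overlapped one another and lay below the lower quartile of their arrays. Detection calls were not used here, so those 4 signals were not shown to be above background. The row was 2.08-fold higher with shRNA 162 than control (1.06, SE 0.09, limma adjusted p = 5.7e-04) and 1.98-fold lower with shRNA 159 than with shRNA 162 (adjusted p = 8.9e-04). With shRNA 159 the change against control was 0.07 (adjusted p = 0.784). Both calls with shRNA 162 held under all 11 alternatives run. The call for both hairpins (0.56, adjusted p = 0.0076) is the mean of these 2 changes, and it was lost without either control clone (adjusted p up to 0.744 over the alternatives).

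PCDHB9 passed in opposite directions. It stood at 7.29 and 7.13 in the shRNA 159 clones, 7.96 and 7.99 in the shRNA 162 clones and 7.63 and 7.60 in the control clones. The 3 groups did not overlap, with control between the hairpins. The change was -0.41 with shRNA 159 (SE 0.08, limma adjusted p = 0.045) and 0.36 with shRNA 162 (SE 0.08, adjusted p = 0.032). Between hairpins the row was 1.7-fold lower with shRNA 159 (-0.77, adjusted p = 0.0016), which held under all 11 alternatives. Against control, the call with shRNA 159 was lost without any 1 of the 6 arrays (adjusted p up to 0.235 over the alternatives), and that with shRNA 162 without any control or shRNA 162 clone (up to 0.166).

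PCDHB12 and PCDHB4 also rose with shRNA 162. PCDHB12 had 6.48 and 6.30 in the shRNA 159 clones, 6.81 and 7.07 in the shRNA 162 clones and 6.12 and 6.43 in the control clones. It was 1.58-fold higher with shRNA 162 than control (0.66, limma adjusted p = 0.018) and 1.46-fold lower with shRNA 159 than with shRNA 162 (-0.55, adjusted p = 0.038). The shRNA 159 and control clones overlapped, and all 4 lay below the lower quartile of their arrays. PCDHB4, a dim row, had 4.10 and 4.29 in the shRNA 159 clones, 4.53 and 4.59 in the shRNA 162 clones and 4.06 and 4.24 in the control clones, a change of 0.41 with shRNA 162 (adjusted p = 0.034). Leaving out the first control clone or the second shRNA 162 clone ended the call of PCDHB12 against control, leaving out any of the 4 silenced clones ended its call between hairpins, and leaving out any control or shRNA 162 clone ended that of PCDHB4. Over all alternatives their adjusted p reached 0.116 for PCDHB12 against control, 0.205 for PCDHB12 between hairpins and 0.191 for PCDHB4.

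PCDHB2, PCDHB6, PCDHB11 and PCDHB15 passed between the hairpins and not against control. PCDHB2 had 6.81 and 6.50 in the shRNA 159 clones, 8.08 and 7.47 in the shRNA 162 clones and 7.58 and 7.00 in the control clones. Its clones of 1 group differed by up to 0.61, and their pooled SD of 0.36 was the highest in the family, where the median was 0.11 (0.09 over all rows). It was 2.18-fold lower with shRNA 159 than with shRNA 162 (-1.12, SE 0.23, limma adjusted p = 0.022), and its changes against control, -0.64 and 0.49, did not pass.

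PCDHB11 had 5.71 and 5.81 in the shRNA 159 clones, 6.43 and 6.26 in the shRNA 162 clones and 6.11 and 6.15 in the control clones, a 1.5-fold lower signal with shRNA 159 than with shRNA 162 (limma adjusted p = 0.006). PCDHB15 had 5.89 and 5.85 in the shRNA 159 clones, 6.36 and 6.23 in the shRNA 162 clones and 6.20 and 6.34 in the control clones, 1.35-fold lower (adjusted p = 0.02). In PCDHB15 the shRNA 162 and control clones overlapped, and the shRNA 159 clones lay below both. PCDHB6 had 4.96 and 4.96 in the shRNA 159 clones, 5.27 and 5.69 in the shRNA 162 clones and 4.92 and 5.06 in the control clones, 1.44-fold lower with shRNA 159 than with shRNA 162 (adjusted p = 0.044). Here the shRNA 159 and control clones overlapped, and the shRNA 162 clones lay above both. PCDHB6, PCDHB11 and PCDHB15 each lay below the lower quartile on all 6 arrays, and their signals were not shown to be above background. The call of PCDHB11 was lost without the first shRNA 162 clone alone (adjusted p = 0.052). PCDHB2 lost its call without that clone or the second shRNA 159 clone, PCDHB15 without any of the 4 silenced clones, and PCDHB6 without any array but the first shRNA 162 clone. Over all alternatives the adjusted p reached 0.108 for PCDHB2, 0.141 for PCDHB15 and 0.197 for PCDHB6. The change of PCDHB6 with shRNA 162 against control, 0.49, passed with a variance trend (adjusted p = 0.027) or without the first shRNA 162 clone (0.70, adjusted p = 0.018), in a range of 0.018 to 0.233 over 11 alternatives.

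PCDHB16 passed in 1 comparison, shRNA 159 minus control. It had 8.31 and 8.08 in the shRNA 159 clones, 8.53 and 8.58 in the shRNA 162 clones and 8.68 and 8.60 in the control clones. The change was -0.45 with shRNA 159 (1.37-fold lower, limma adjusted p = 0.049) and -0.09 with shRNA 162 (adjusted p = 0.621). The call was lost when any array other than the first shRNA 159 clone was left out (adjusted p up to 0.221 over the alternatives). Between hairpins the change of -0.36 passed when the brighter rows alone were tested (adjusted p = 0.011), with a variance trend (0.014) and without the first shRNA 159 clone (-0.48, adjusted p = 0.029), in a range of 0.011 to 0.221 over 12 alternatives. The change of -0.27 for both hairpins passed under the first 2 of these (adjusted p = 0.028 and 0.042, range 0.028 to 0.744). The other 9 PCDHB rows passed in no comparison. Among them, named after their values were seen, PCDHB10 had -0.32 between hairpins (adjusted p = 0.052), and PCDHB13 and PCDHB8 were the 2 rows of the cluster above 0, at 0.15 and 0.32.

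The PCDHA rows, upstream of PCDHB on the same chromosome, held 1 row that passed, in 2 comparisons. PCDHA8 had 7.99 and 7.94 in the shRNA 159 clones, 7.99 and 7.77 in the shRNA 162 clones and 8.29 and 8.38 in the control clones. All 4 silenced clones lay below both control clones. The change was -0.37 with shRNA 159 (limma adjusted p = 0.095), -0.45 with shRNA 162 (adjusted p = 0.022) and -0.41 for both hairpins (adjusted p = 0.029). Both calls were lost without either control clone or without the second shRNA 162 clone, with adjusted p up to 0.149 with shRNA 162 and 0.305 for both hairpins over the alternatives. The change with shRNA 159 passed when the brighter rows alone were tested (adjusted p = 0.02) or with a variance trend (0.036), in a range of 0.02 to 0.492. Between hairpins no PCDHA row passed, and the median change of the 13 rows was -0.07, beside -0.40 for PCDHB.

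PCDHA3, PCDHA5 and PCDHA13 stood above the median on all 6 arrays, and their changes against control lay between -0.07 and 0.07. PCDHA13, for instance, had 8.05 and 8.24 in the shRNA 159 clones, 8.18 and 8.28 in the shRNA 162 clones and 8.12 and 8.19 in the control clones. PCDHGB4, the PCDHG gene with a row of its own, had 7.84 and 8.10 in the shRNA 159 clones, 8.38 and 8.02 in the shRNA 162 clones and 7.95 and 8.16 in the control clones, with all groups overlapping. The row shared by 15 PCDHA symbols stayed between 6.42 and 6.63 on all arrays.

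Genes beside the clusters, with family members left out, were read in RefSeq order, with no list picked for how it moved. Of the 10 measured genes before the PCDHA cluster, ZMAT2 passed (0.39 with shRNA 162, limma adjusted p = 0.031). Of the 10 after the clusters, SPRY4, an inhibitor of receptor tyrosine kinase signalling, passed (0.45 with shRNA 162, adjusted p = 0.024). Neither SLC25A2 nor TAF7, which lie between PCDHB and PCDHG, passed. None of these 22 genes passed between the hairpins. Over all rows, 9.52% passed with shRNA 162 and 8.65% between hairpins.

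CDH11 had the largest change of the family. This type II cadherin, known from osteoblasts and mesenchymal cells, had 6.42 and 6.58 in the shRNA 159 clones, 8.52 and 8.30 in the shRNA 162 clones and 6.53 and 6.47 in the control clones. The shRNA 162 clones stood apart, above the median of their arrays, and the shRNA 159 clones lay on either side of the control clones. The shRNA 159 and control clones all lay below the lower quartile of their arrays, and their signals were not shown to be above background. CDH11 was 3.77-fold higher with shRNA 162 than control (1.91, SE 0.10, 95% interval 1.68 to 2.14, limma adjusted p = 5.1e-05). With shRNA 159 the change was 0.00 (interval -0.23 to 0.23, adjusted p = 0.998). The direct comparison, shRNA 159 minus shRNA 162, gave -1.91 (adjusted p = 5.7e-05). The calls with shRNA 162 against control and between hairpins held under all 11 alternatives. The value for both hairpins, 0.96 (adjusted p = 0.0011), is the mean of 1.91 and 0.00 and is the change of neither hairpin. It was lost with the 4 silenced clones as 1 group or the hairpin as a random block (adjusted p up to 0.765).

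Of the 10 measured genes outside the family flanking CDH11 on chromosome 16, CNOT1, part of the deadenylase complex, was higher with shRNA 162 (0.29, limma adjusted p = 0.042). CMTM3 was higher with shRNA 159 (0.68, adjusted p = 0.0053) and higher with shRNA 159 than with shRNA 162 (0.46, adjusted p = 0.015). The other 8 passed in no comparison.

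CDH11 was the single one of 28 CDH, DSG and DSC rows to pass in any comparison (3.57% with shRNA 162, where 9.52% of all rows passed). CDH2, the N-cadherin of neurons and mesenchymal cells, had 6.55 and 6.73 in the shRNA 159 clones, 6.88 and 6.87 in the shRNA 162 clones and 6.68 and 6.80 in the control clones. Its change was -0.10 with shRNA 159 (interval -0.31 to 0.10) and 0.13 with shRNA 162 (interval -0.07 to 0.34). Between hairpins it was -0.24 (limma adjusted p = 0.151). The shRNA 162 clones lay above all others, and the shRNA 159 and control clones overlapped. Those 4 lay below the lower quartile of their arrays, and their signals were not shown to be above background.

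CDH1, the E-cadherin that this line is known to lack, had 6.22 and 6.29 in the shRNA 159 clones, 6.37 and 6.42 in the shRNA 162 clones and 6.34 and 6.40 in the control clones. All 6 values were under their array's lower quartile. Its change was -0.11 (interval -0.29 to 0.06) with shRNA 159 and 0.03 (interval -0.15 to 0.21) with shRNA 162. CDH3, the placental cadherin of basal epithelia, had changes of 0.02 and 0.08, with intervals from -0.22 to 0.32. It lay below the lower quartile on 5 of the 6 arrays. CDH5, the cadherin of endothelium, had changes of -0.07 and -0.06, with intervals from -0.28 to 0.14. None of these 3 passed.

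Beside these uncalled epithelial cadherins, some epithelial markers moved. EPCAM, an epithelial adhesion protein, had 7.97 and 8.02 in the shRNA 159 clones, 7.16 and 7.25 in the shRNA 162 clones and 7.01 and 7.09 in the control clones, and it rose with shRNA 159 (0.94, limma adjusted p = 8.6e-04). CLDN4 rose with shRNA 159 (0.58, adjusted p = 0.023), and KRT8 fell with shRNA 162 (-0.44, adjusted p = 0.027). The other 4 of the 7 measured epithelial markers did not pass. The summed log2 level of the 7 was 66.68 and 67.27 in the shRNA 159 clones, 64.97 and 64.68 in the shRNA 162 clones and 65.50 and 65.67 in the control clones. Their median change was 0.00 with shRNA 159 and -0.11 with shRNA 162, so the sum with shRNA 159 mostly reflects EPCAM and CLDN4. Over all rows, 1.69% were higher with shRNA 159 and 3.64% lower with shRNA 162.

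**Figure D3:**
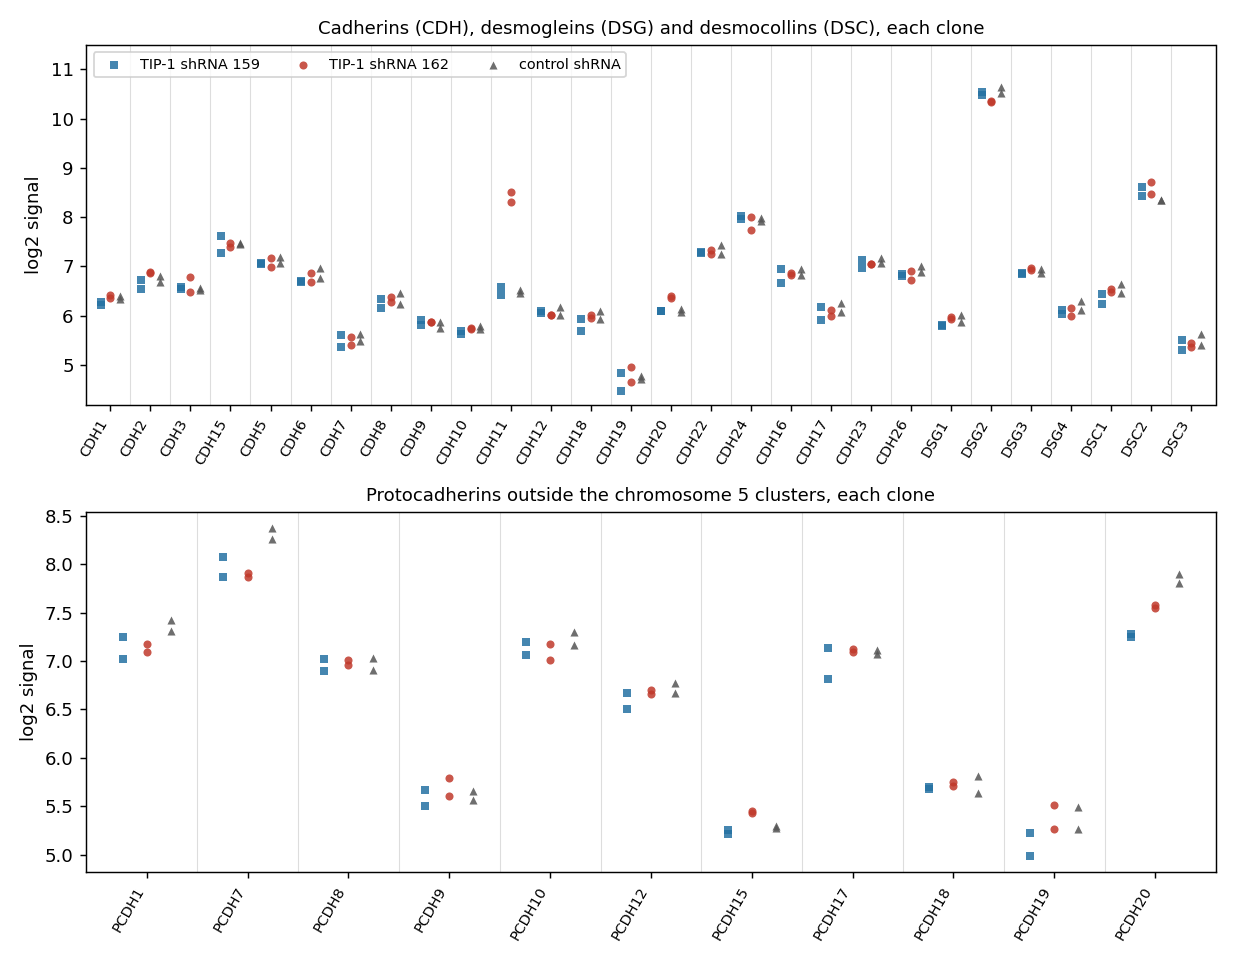
Log2 signal (vertical axes) of each clone for the 28 cadherin, desmoglein and desmocollin rows (upper panel) and the 11 protocadherins outside the clusters (lower panel), with squares for TIP-1 shRNA 159, circles for TIP-1 shRNA 162 and triangles for control shRNA. CDH11 in the shRNA 162 clones departs from a panel in which the groups otherwise lie close together, and in the lower panel PCDH20 and PCDH7 are highest in the control clones.

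The desmosomal cadherins did not pass in any comparison. DSG2, the desmoglein found in most desmosome-bearing cells, was the one member above the upper quartile on all 6 arrays. It had 10.54 and 10.48 in the shRNA 159 clones, 10.36 and 10.34 in the shRNA 162 clones and 10.65 and 10.52 in the control clones. The shRNA 162 clones lay below all others, at a change of -0.23 (interval -0.42 to -0.05, limma adjusted p = 0.115). It passed when the brighter rows alone were tested (adjusted p = 0.032) or with a variance trend (adjusted p = 0.021), and over all 12 alternatives the adjusted p lay between 0.021 and 0.423.

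DSC2, the desmocollin that pairs with DSG2 in simple epithelia, had 8.61 and 8.44 in the shRNA 159 clones, 8.71 and 8.48 in the shRNA 162 clones and 8.34 and 8.35 in the control clones. All 4 silenced clones lay above both control clones, at changes of 0.18 and 0.25 that did not pass (limma adjusted p = 0.472 and 0.158). DSC3 had a change of -0.13 with each hairpin, with overlapping clones, and lay below the lower quartile on all 6 arrays. The remaining DSG and DSC rows, DSG1, DSG3, DSG4 and DSC1, had changes against control between -0.22 and 0.03.

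Among the 11 protocadherins outside the clusters, 2 passed against control, both lower: 1 with shRNA 159 (9.09%, where 2.53% of all rows passed), 2 with shRNA 162 (18.2%, where 9.52% did) and 2 for both hairpins (18.2%, where 4.62% did). PCDH20, a protocadherin of the brain, had 7.28 and 7.25 in the shRNA 159 clones, 7.58 and 7.55 in the shRNA 162 clones and 7.81 and 7.90 in the control clones. The groups did not overlap, and its pooled clone SD was 0.04. It was 1.5-fold lower than control with shRNA 159 (-0.59, SE 0.08, limma adjusted p = 0.0058) and 1.22-fold lower with shRNA 162 (-0.29, SE 0.08, adjusted p = 0.049). The difference between hairpins was -0.30 (adjusted p = 0.047).

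The calls of PCDH20 were not equally firm. That with shRNA 159 held under 9 of 11 alternatives and was lost without the second control clone and when all rows were tested (adjusted p up to 0.069). That with shRNA 162 held under 4 of 11 and was lost when any control or shRNA 162 clone was left out, over all rows (adjusted p = 0.128) and with a variance trend (0.053), with adjusted p up to 0.24. The one between hairpins held under none of the 11. The value for both hairpins, -0.44 (adjusted p = 0.0092), was lost without either control clone (adjusted p up to 0.353 over the alternatives). Of 10 measured neighbours outside the family on chromosome 13, PIBF1 passed (0.40 with shRNA 162, adjusted p = 0.018).

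PCDH7, a protocadherin of heart and brain that has been tied to contacts between carcinoma cells and astrocytes, had 7.87 and 8.07 in the shRNA 159 clones, 7.91 and 7.87 in the shRNA 162 clones and 8.26 and 8.37 in the control clones. All 4 silenced clones lay below both control clones. The change was -0.35 with shRNA 159 (limma adjusted p = 0.107), -0.43 with shRNA 162 (adjusted p = 0.024) and -0.39 for both (adjusted p = 0.032). With shRNA 159 it passed when the brighter rows alone were tested (adjusted p = 0.023) or with a variance trend (adjusted p = 0.048), in a range of 0.023 to 0.533 over 12 alternatives. The calls with shRNA 162 and for both hairpins were lost without any control or shRNA 162 clone, and that for both also without the first shRNA 159 clone (adjusted p up to 0.146 and 0.327). Of its 10 measured neighbours outside the family on chromosome 4, PGCKA1 passed, at -1.04 with shRNA 162 (adjusted p = 4.6e-04). The other 9 protocadherins outside the clusters had changes against control between -0.27 and 0.15 that did not pass.

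The cytoplasmic partners were read from 6 lists of genes, chosen by function with earlier results of these data known, and the alternatives were not run for them. Of 18 measured catenins and plaque proteins, 1 was higher with shRNA 162 and none lower, and 3 were lower with shRNA 159 than with shRNA 162. Over all rows, 5.88% were higher and 3.64% lower with shRNA 162, and 4.64% were lower with shRNA 159 than with shRNA 162. JUP, plakoglobin, which serves both junction types, had 7.93 and 7.86 in the shRNA 159 clones, 7.98 and 7.98 in the shRNA 162 clones and 7.66 and 7.67 in the control clones. It rose by 0.32 with shRNA 162 (limma adjusted p = 0.031), and its change of 0.23 with shRNA 159 did not pass.

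CTNNA1, the alpha-catenin that ties cadherins to actin, had 10.84 and 10.68 in the shRNA 159 clones, 11.15 and 11.16 in the shRNA 162 clones and 11.15 and 11.13 in the control clones. It was lower with shRNA 159 than with shRNA 162 (-0.40, limma adjusted p = 0.023). The desmosomal plaque proteins PKP2 (-0.33, adjusted p = 0.047) and DSP (-0.34, adjusted p = 0.034) were lower in the same comparison. CTNNB1, beta-catenin, had a change of -0.12 with shRNA 162 and did not pass.

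Of 18 measured proteases and trafficking genes, 1 was higher with shRNA 159 and 2 were lower with shRNA 162, where 1.69% and 3.64% of all rows were. ADAM10, which cuts E- and N-cadherin at the cell surface, fell with shRNA 162 (-0.35, limma adjusted p = 0.026), as did the membrane metalloproteinase MMP14 (-0.55, adjusted p = 0.024). ADAM17, a related sheddase, had 9.12 and 9.05 in the shRNA 159 clones, 8.60 and 8.59 in the shRNA 162 clones and 8.55 and 8.55 in the control clones, and rose with shRNA 159 (0.53, adjusted p = 0.0083). All 3 were higher with shRNA 159 than with shRNA 162, where 4.02% of all rows were.

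Of 21 measured transcription and chromatin factors tied to cadherin genes, 1 was higher and 1 lower with each hairpin. Over all rows, 1.69% were higher and 0.839% lower with shRNA 159, and 5.88% and 3.64% with shRNA 162. SNAI1, a repressor of CDH1, had 8.54 and 8.27 in the shRNA 159 clones, 7.91 and 8.05 in the shRNA 162 clones and 7.67 and 7.52 in the control clones. It rose with shRNA 159 (0.81, limma adjusted p = 0.0073), and its change of 0.38 with shRNA 162 did not pass. SNAI2, its relative, fell with shRNA 159 (-0.39, adjusted p = 0.044) and with shRNA 162 (-0.52, adjusted p = 0.0066). Between hairpins, shRNA 159 minus shRNA 162, SNAI1 (0.43, adjusted p = 0.047) and ZEB2, another CDH1 repressor (0.37, adjusted p = 0.036), were higher. KLF4 was lower (-0.42, adjusted p = 0.019).

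That list also held factors known to act at the clustered protocadherins. RAD21, a cohesin subunit, had 11.05 and 10.89 in the shRNA 159 clones, 11.38 and 11.27 in the shRNA 162 clones and 10.97 and 11.01 in the control clones. It was higher with shRNA 162 than control (0.33, limma adjusted p = 0.046) and lower with shRNA 159 than with shRNA 162 (-0.35, adjusted p = 0.04). SMCHD1, a repressor of these clusters, was lower for both hairpins together (-0.31, adjusted p = 0.045). CTCF, which loops enhancers to the chosen promoters, had a change of 0.17 with shRNA 162 and did not pass. The part of these factors in the PCDHB values was not tested.

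**Figure D4:**
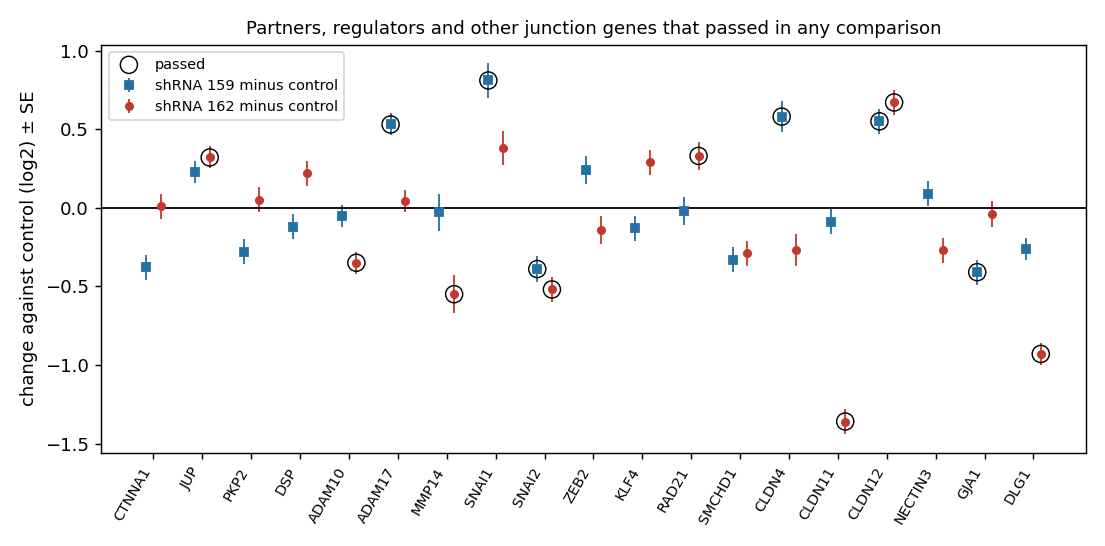
Change against control on the log2 scale (vertical axis, points with SE) for the genes of the 6 partner and regulator lists that passed in any comparison (horizontal axis), with squares for shRNA 159 and circles for shRNA 162. Open rings mark changes that passed, among them CLDN11 at -1.36 and DLG1 at -0.93 with shRNA 162 and SNAI1 at 0.81 with shRNA 159.

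None of 17 measured members of the wider cadherin superfamily, the FAT, dachsous, CELSR, calsyntenin and CDHR genes, passed in any comparison. Per comparison, 2.53% to 9.52% of all rows passed. Of 19 other junction proteins, 2 were higher and 1 lower with shRNA 159, and 1 was higher and 1 lower with shRNA 162. Over all rows, 1.69% were higher and 0.839% lower with shRNA 159, and 5.88% and 3.64% with shRNA 162. CLDN11, a claudin of myelin and testis, had 9.40 and 9.45 in the shRNA 159 clones, 8.16 and 8.14 in the shRNA 162 clones and 9.47 and 9.55 in the control clones, and fell with shRNA 162 (-1.36, limma adjusted p = 7.3e-05). CLDN12 rose by 0.55 with shRNA 159 (adjusted p = 0.0083) and 0.67 with shRNA 162 (adjusted p = 0.0019). GJA1, the gap junction protein connexin 43, fell with shRNA 159 (-0.41, adjusted p = 0.04). NECTIN3, a nectin of adherens junctions, was higher with shRNA 159 than with shRNA 162 (0.36, adjusted p = 0.031).

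Of 12 measured PDZ scaffolds and known TIP-1 partners, 1 passed, lower with shRNA 162, where 3.64% of all rows were. DLG1, a polarity scaffold found at cell contacts, had 10.63 and 10.60 in the shRNA 159 clones, 9.96 and 9.94 in the shRNA 162 clones and 10.92 and 10.84 in the control clones. The 3 groups did not overlap. It fell with shRNA 162 (-0.93, limma adjusted p = 4.3e-04), and its change of -0.26 with shRNA 159 did not pass. Median changes of the 6 lists lay between -0.07 and 0.03 in all 4 comparisons.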

How the data were processed

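The deposited values are log2 signals per transcript cluster, 33297 rows on 6 arrays, which the authors made with Affymetrix's Exon Array Computational Tool, per the series' design text, at settings not given in the sources used here. Base 2 is inferred from values between 2.29 and 14.65. By the platform's probe table, 19460 rows had 1 symbol, 1754 several and 12083 none. The 21214 rows with a symbol were fitted without further scaling (lmFit and eBayes of limma 3.58.1, R 4.3.3, with 3 groups, 3 residual and 5.31 prior degrees of freedom, two-sided tests, Benjamini-Hochberg adjustment), after the fit was tested on simulated data. Intervals are 95% intervals of that fit. Arrays give no count depth, and their number limits the precision. Detection calls were not used.

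The members and gene lists were chosen with earlier results of these data known. Named were fixed members, those that passed, the 8 with the highest mean signal, and list genes that passed. Neighbours flanking the members that passed were added. The alternatives were other row sets, quantile normalization, a variance trend, a clone-number block, each array left out in turn, the compared arrays alone, and 2 models of the hairpin. Gene order and promoters are RefSeq's (GRCh38.p14).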

Additional observations from a re-analysis of the deposited data

Results flagged for a closer look

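Each of these 9 members was flagged because its change against control differed between the 2 hairpins by the test of that difference (shRNA 159 minus shRNA 162, limma adjusted p under 0.05, log2 scale). CDH11 differed by -1.91, PCDHB2 by -1.12 and PCDHB14 by -0.98. PCDHB9 differed by -0.77, PCDHB11 by -0.59, PCDHB12 by -0.55 and PCDHB6 by -0.52. PCDHB15 differed by -0.43 and PCDH20 by -0.30. All 9 were lower with shRNA 159. With 2 clones per hairpin, a difference between hairpins and one between the clones picked for each cannot be told apart.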

How the results depend on the processing

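With 2 clones per group the arrays support few calls. A lone clone left by leaving out its partner is assumed to vary like the other groups. Counts of members that passed are given in the order shRNA 159 minus control (3), shRNA 162 minus control (8), both hairpins minus control (5) and shRNA 159 minus shRNA 162 (9). Leaving out each array in turn gave 0 to 2, 2 to 8, 1 to 5 and 4 to 7. Testing all rows, which adds rows with no symbol to the fit and to the adjustment, gave 0, 2, 1 and 4. Testing the brighter rows (mean at or above the median) gave 3, 3, 3 and 1, and of the calls 1, 2, 2 and 0 were among the rows tested. Quantile normalization gave 2, 7, 5 and 6, with 5 PCDHB rows between hairpins. Calls lost under it were PCDHB6, PCDHB12 and PCDH20 between hairpins, PCDHB9 with shRNA 159 and PCDHB4 with shRNA 162. A variance trend gave 5, 9, 7 and 10. The 4 arrays compared gave 1 with shRNA 159, 8 with shRNA 162 and 7 between hairpins. For both hairpins minus control, a random block for the hairpin gave 0, and so did pooling the 4 silenced clones. The clone number as a replicate block gave 4, 9, 5 and 10. With it PCDHB2 passed against control (-0.64, adjusted p = 0.013, with shRNA 159 and 0.49, adjusted p = 0.019, with shRNA 162), and PCDH20 with shRNA 162 did not (adjusted p = 0.056). Deviations of same-numbered clones correlated at -0.052 for control with shRNA 162, 0.263 for control with shRNA 159 and -0.028 for shRNA 162 with shRNA 159. With 2 clones per group, a pairing by number was neither shown nor excluded. The count of 7 PCDHB rows between hairpins, a result chosen after seeing the data, became 1 among the brighter rows (1 of 18 rows tested), 3 over all rows, 3 to 6 without single arrays (4 lower and 1 higher without the second shRNA 162 clone) and 9 with the block. TAX1BP3, shRNA 159 minus shRNA 162, stayed at 0.47 but did not pass over all rows (adjusted p = 0.068) or without the first shRNA 162 clone (0.39, adjusted p = 0.101), and was 0.39 to 0.55 without single arrays. For single named members, calls held in 177 of 285 settings, none changed sign, and uncalled values came to pass in 19. Where no cause is given, the cause was not tested.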
